A study of Mus musculus with 8 samples.

Results

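Translation initiation factors bring the ribosome, the initiator tRNA and the mRNA together, and aminoacyl-tRNA synthetases load each tRNA with its amino acid. Their mRNAs were followed here in mouse macrophages at rest, with interleukin 4 (IL4) and with lipopolysaccharide plus interferon gamma (LPS plus IFNg). The members were chosen by name from 20258 rows with a gene symbol: every row whose name starts with Eif and a digit from 1 to 6, without the eIF2 alpha kinases, and the 20 cytosolic synthetases from Aars to Yars, 74 rows in all. The Eif names cover 54 rows. Of these, 53 were tested, because Eif4e1b, a germ-line relative of the cap-binding protein, was listed at 0 in all 8 libraries, and all 20 synthetases were tested. The name rule also took in rows that do not act in initiation: Eif2c1 to Eif2c4 are older names of the Argonaute genes Ago1 to Ago4, Eif4a3 encodes a helicase of the exon junction complex, Eif5a and Eif5a2 encode a factor that now counts mainly as an elongation factor, and Eif4ebp1 to Eif4ebp3 encode inhibitors of eIF4E.

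The cells were macrophages grown from the bone marrow of C57BL/6 mice. For 24 h they received no stimulus (2 libraries), IL4 (3 libraries) or LPS together with IFNg (3 libraries). No genetic change is named for any group. Because LPS and IFNg were given together, their shares in a difference cannot be told apart. The labels do not say whether the libraries of a group come from separate animals or cultures, so the p-values measure the spread between these libraries, which may be technical. Expression was measured by counting 3′ ends of polyadenylated RNA, and the values are log2 expression, quantile normalised by the authors. A difference of 1 is therefore a doubling of relative abundance.

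The macrophage label was checked against marker genes. Of 10 macrophage markers, 9 were in the table and none of them was listed at 0 throughout a group, with a log2 summed level of 14.4 to 14.5 without stimulus, 13.6 to 14.3 with IL4 and 13.7 to 13.8 with LPS plus IFNg. Against no stimulus, 4 of the 9 fell with IL4 (Mertk, Fcgr1, Lyz2 and Cd14), and with LPS plus IFNg 3 fell (Csf1r, Lyz2 and Mrc1) and 1 rose (Fcgr1). The 6 neutrophil markers found in the table had summed levels of 10.9 to 11.1, 9.78 to 10.6 and 7.65 to 8.14 in the same order, and 3 of the 6 fell with LPS plus IFNg (Mpo was at 0 in all 3 of those libraries). The markers counted as fallen or risen passed limma's test at an adjusted p of 0.05. Of all rows, 0.793% fell with IL4, and 4.25% fell and 3.72% rose with LPS plus IFNg. The 5 fibroblast markers had summed levels of 11.2 to 11.6, 10.1 to 10.7 and 10.2 to 11.2. Markers of dendritic cells, lymphocytes, mast cells and red cells had summed levels of at most 5.97, and Itgae, Cd3e, Mcpt4 and Hbb-b1 were at 0 in every library. The part of these marker changes, and of neutrophils and fibroblasts, in the differences described here was not tested. Between 1577 and 3568 of the 13615 tested rows stood at exactly 0 in a library, with the fewest in the unstimulated ones (1577 and 2588). In bulk RNA, fewer cells of a type and less RNA per cell cannot be told apart.

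In the cell, eIF2 with GTP carries the initiator tRNA, eIF3 holds the small ribosomal subunit ready, and the eIF4 group reads the mRNA cap and unwinds the leader. Phosphorylation of eIF2 by stress kinases slows general initiation while the transcription factor ATF4 is made, and ATF4 in turn is known to switch on many synthetase genes. The tryptophanyl-tRNA synthetase gene Wars is known separately as a classical target of interferon gamma. Macrophages answer IL4 and LPS plus IFNg with different sets of secreted and surface proteins, so both groups of genes serve cells that are remaking their protein content.

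Set side by side, the distance between the 2 groups differed by condition. In each library the median level of the 53 Eif rows was compared with the median level of the 20 synthetases. The median of the Eif rows lay above that of the synthetases by 1.61 and 1.88 log2 units without stimulus. With IL4 this gap was 1.11, 1.23 and 1.11, and with LPS plus IFNg it was 0.84, 0.95 and 0.74. The 3 conditions did not overlap: the gap was widest without stimulus and narrowest with LPS plus IFNg. The synthetase median includes Wars, described below. With Wars left out, the gap was still widest without stimulus, but the IL4 and LPS plus IFNg libraries overlapped. The order of the 2 stimuli thus depended on Wars. Because both medians come from one library, a shift that is the same for every row of that library cancels in the gap. Quantile normalisation is not such a shift, and its part in this ordering was not tested.

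Which of the 2 medians moved depends on the scaling. The synthetase medians were 6.39 and 6.48 without stimulus, 7.04, 7.08 and 7.27 with IL4, and 6.93, 6.88 and 6.99 with LPS plus IFNg. The Eif medians were 8.0 and 8.36, then 8.16, 8.31 and 8.38, then 7.77, 7.83 and 7.73. As deposited, the synthetase medians were thus higher in every stimulated library than in either unstimulated one, and the Eif medians were lower in every LPS plus IFNg library than in any other. The median of the differences of single genes is another measure and need not move alike. As deposited, it was 0.45 (IL4) and 0.07 (LPS plus IFNg) for the synthetases, and -0.03 and -0.39 for the Eif rows. By that second measure, the values after housekeeping scaling were alike for both stimuli. They were 0.165 (IL4) and 0.24 (LPS plus IFNg) for the Eif rows and 0.64 and 0.695 for the synthetases. After ribosomal protein scaling the median difference of the Eif rows with LPS plus IFNg was 1.15.

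**Figure D1:**
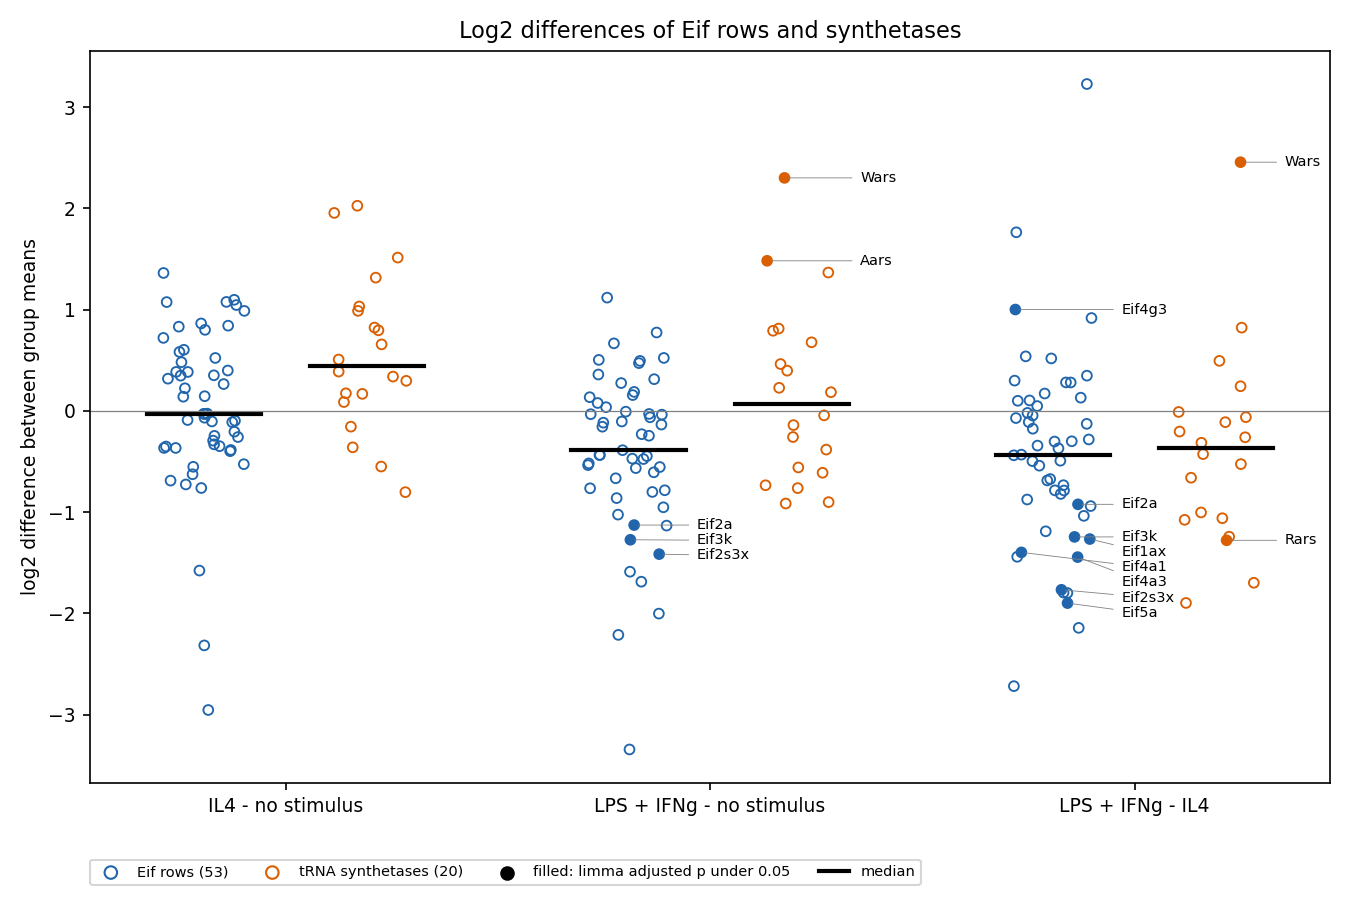
Log2 difference between group means (y axis) of the 53 tested Eif rows (blue) and the 20 synthetases (orange) in the 3 comparisons; each circle is a gene, black bars are medians and filled circles passed limma's test at an adjusted p of 0.05. Wars stands above the other synthetases in both LPS plus IFNg comparisons; the medians of the Eif rows there, -0.39 and -0.43 as deposited, became 0.24 and 0.00 (to 2 decimals) after scaling to housekeeping genes, and 1.15 and 1.06 after scaling to ribosomal protein genes.

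Few members passed the test. A row counts as called at a Benjamini-Hochberg adjusted p of 0.05 in limma, over all 13615 rows tested. With IL4 against no stimulus, limma called 0 Eif rows and 0 synthetases, where 1.31% of all rows were called in either direction (0.514% higher and 0.793% lower). At an unadjusted p of 0.05, 4 Eif rows were higher and 1 was lower, and 5 synthetases were higher and 1 was lower (all rows: 5.53% higher and 6.57% lower). With LPS plus IFNg against no stimulus, 3 Eif rows fell and none rose, and 2 synthetases rose and none fell, where 3.72% of all rows rose and 4.25% fell. At an unadjusted p of 0.05 in that comparison, 0 Eif rows were higher and 11 were lower, and 4 synthetases were higher and 1 was lower (all rows: 8.47% and 10.9%). With LPS plus IFNg against IL4, 1 Eif row and 1 synthetase were higher and 7 Eif rows and 1 synthetase were lower, where 5.91% of all rows were higher and 6.96% lower. The 2 comparisons with no stimulus share the unstimulated libraries, and both LPS plus IFNg comparisons share the LPS plus IFNg libraries.

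Shifts of whole groups depend on the scaling. Scaling the libraries to 12 housekeeping genes moved the median of all rows by 0.19 for IL4 against no stimulus, 0.62 for LPS plus IFNg against no stimulus and 0.43 for LPS plus IFNg against IL4. Scaling to 77 ribosomal protein genes moved it by 0.05, 1.54 and 1.49. Of those 77 genes, 57 fell with LPS plus IFNg against no stimulus and 64 against IL4 as deposited, and 0 changed with IL4. The called rows split accordingly: the share that was higher with LPS plus IFNg than without stimulus was 46.6% as deposited, 78.4% with housekeeping scaling and 97% with ribosomal protein scaling. Against IL4 these shares were 45.9%, 69.4% and 96%, and for IL4 against no stimulus 39.3%, 57.5% and 42.9%. Of the called members described here, Eif2a, Eif2s3x and Eif3k (against no stimulus) and Eif1ax, Eif2a, Eif3k, Eif4a1, Eif4a3 and Rars (against IL4) were lower as deposited and under housekeeping scaling but above 0 under ribosomal protein scaling, and passed under neither. Wars, Aars and Eif4g3 were higher under all 3 scalings, and Eif5a and Eif2s3x were lower than with IL4 under all 3, without passing under ribosomal protein scaling.

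Wars had the largest called difference of the 20 synthetases. It stood at 5.57 and 5.72 without stimulus, at 5.23, 5.72 and 5.53 with IL4 and at 7.66, 8.54 and 7.65 with LPS plus IFNg. The unstimulated and IL4 libraries overlapped, and every LPS plus IFNg library lay above all 5 of them. Wars rose 4.93-fold with LPS plus IFNg against no stimulus (log2 2.30, SE 0.38, limma adjusted p = 0.0123) and was 5.49-fold higher than with IL4 (log2 2.46, SE 0.34, adjusted p = 0.00406). With IL4 alone it differed from no stimulus by -0.16 (SE 0.38, adjusted p = 0.958). The rise over no stimulus missed the threshold when either unstimulated library was left out (adjusted p = 0.0621 and 0.0584), while the difference from IL4 passed in all 8 leave-outs (0.0109 to 0.0164).

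The other 19 synthetases give a scale within each library. Wars lay below their median by 0.90 and 0.93 log2 units without stimulus and by 1.98, 1.39 and 1.84 with IL4. With LPS plus IFNg it lay above their median, by 0.85, 1.74 and 0.71. Counted by gene, 13 and 15 of the 19 exceeded Wars without stimulus, 16 to 18 with IL4 and 4 or 5 with LPS plus IFNg. Levels of different genes also reflect how well each 3′ end is captured, so it is the change of this place between conditions that the values show.

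Wars rose together with other genes induced by interferon gamma. Of 15 such genes in a list, 14 were tested, and 12 rose with LPS plus IFNg against no stimulus (median log2 difference 4.62) and 13 were higher than with IL4 (median 4.72), where 3.72% and 5.91% of all rows were called higher. Irf1, a transcription factor of the interferon response, was 3.97 log2 units higher than without stimulus (limma adjusted p = 0.0023). The rise of Wars was smaller than that of Irf1. Ido1, the interferon-induced enzyme that breaks down tryptophan, was listed at 0 in all 8 libraries. Wars2, the mitochondrial tryptophanyl-tRNA synthetase, was not higher: its difference was -2.39 against no stimulus (SE 1.11, adjusted p = 0.301) and -2.32 against IL4 (SE 0.99, adjusted p = 0.198).

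**Figure D2:**
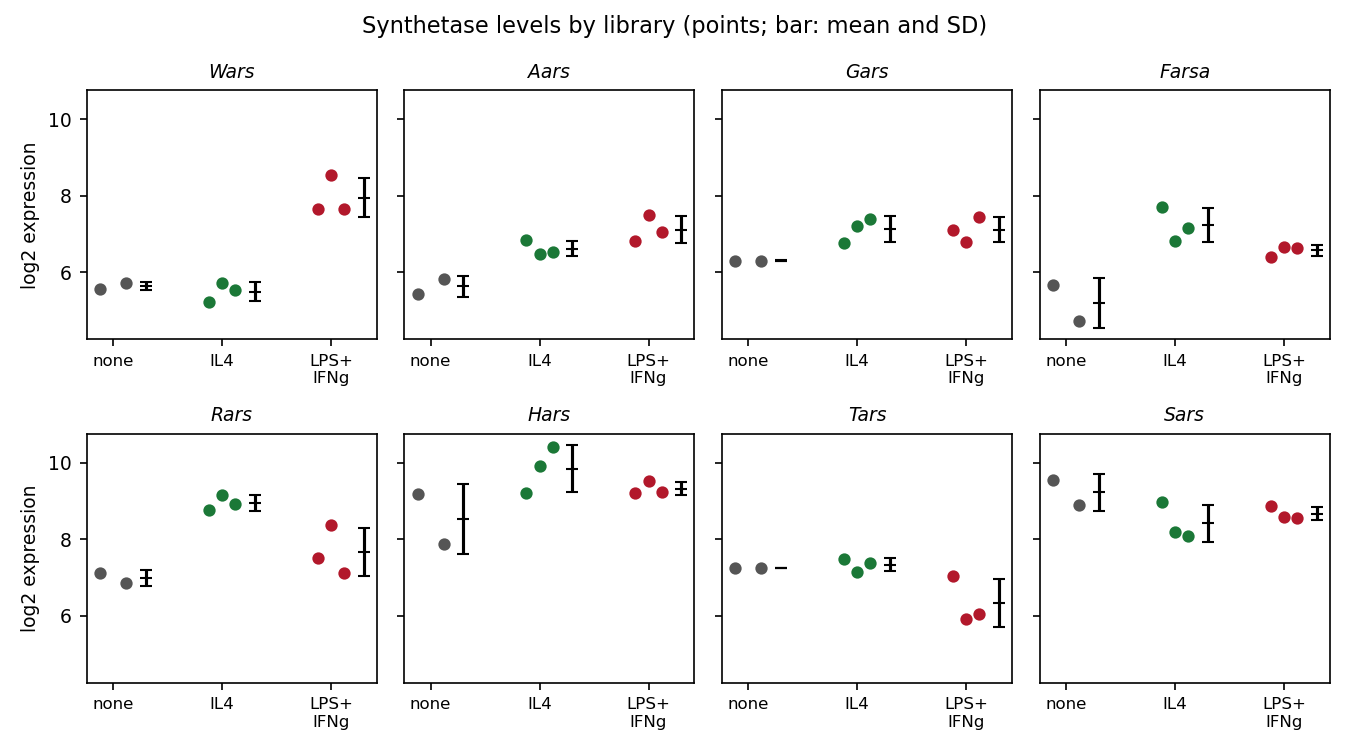
Log2 expression (y axis) of 8 synthetases in each library, by condition; points are libraries and the bars beside them give the mean and SD (2 unstimulated, 3 IL4 and 3 LPS plus IFNg libraries). Wars is high in the 3 LPS plus IFNg libraries only, Aars and Gars are higher in all 6 stimulated libraries than in either unstimulated one, and Rars is highest with IL4.

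Aars, the alanyl-tRNA synthetase gene, was the other synthetase to rise. Its levels were 5.44 and 5.83 without stimulus, 6.85, 6.48 and 6.54 with IL4, and 6.81, 7.50 and 7.04 with LPS plus IFNg. Every stimulated library was above both unstimulated ones, and the IL4 and LPS plus IFNg libraries overlapped. The rise with LPS plus IFNg was 2.80-fold (log2 1.48, SE 0.33, limma adjusted p = 0.0388), and the IL4 difference of 0.99 (SE 0.33) did not pass (adjusted p = 0.281). The call did not hold in 5 of 8 leave-outs, namely without either unstimulated library, IL4 replicate 3 or LPS plus IFNg replicate 2 or 3 (adjusted p up to 0.115).

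Rars, the arginyl-tRNA synthetase gene, had its highest values after IL4. It stood at 7.13 and 6.85 without stimulus, at 8.76, 9.17 and 8.92 with IL4 and at 7.52, 8.36 and 7.12 with LPS plus IFNg. All 3 IL4 libraries lay above the other 5. Against IL4, Rars was 2.42-fold lower with LPS plus IFNg (log2 -1.28, SE 0.33, adjusted p = 0.045), a call that passed in 1 of 8 leave-outs (without LPS plus IFNg replicate 2; adjusted p up to 0.141 in the others). The IL4 difference from no stimulus, 1.96 (SE 0.37), just missed the threshold in limma (adjusted p = 0.0597).

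Farsa, which encodes the alpha subunit of the phenylalanyl-tRNA synthetase, had the largest IL4 difference of the synthetases. Its levels were 5.67 and 4.74 without stimulus, 7.72, 6.83 and 7.16 with IL4 and 6.41, 6.67 and 6.64 with LPS plus IFNg. The 3 conditions did not overlap, yet the IL4 difference of 2.03 (SE 0.41, adjusted p = 0.0749) and the LPS plus IFNg difference of 1.37 (SE 0.41, adjusted p = 0.104) did not pass. Its partner Farsb, the beta subunit, overlapped between all conditions: 5.56 and 5.89, then 5.89, 6.78 and 5.40, then 3.89, 4.97 and 6.03.

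Across the 20 synthetases, the IL4 differences lay mostly on one side. The IL4 libraries were all above both unstimulated libraries for 10 synthetases and all below them for none, where 11.7% and 14.7% of all rows did so. The median difference was 0.45 (16 of 20 above 0) as deposited, 0.64 after housekeeping scaling and 0.50 after ribosomal protein scaling, against -0.01 over all rows tested as deposited. With LPS plus IFNg against no stimulus the median was 0.07 as deposited (10 of 20 above 0), 0.69 after housekeeping scaling and 1.61 after ribosomal protein scaling, and against IL4 it was -0.37 (4 of 20 above 0), 0.06 and 1.12. Leaving out Wars gave, as deposited, -0.04 against no stimulus (9 of 19 above 0) and -0.43 against IL4 (3 of 19). With IL4 against no stimulus, none of the 20 passed limma's test after adjustment. The calls at an unadjusted p of 0.05 were Rars, Farsa, Aars, Hars and Gars on the higher side and Sars on the lower. In that comparison Hars, the histidyl-tRNA synthetase gene, was 1.32 higher (SE 0.46, adjusted p = 0.292), and Gars, the glycyl-tRNA synthetase gene, was 0.82 higher (SE 0.32, adjusted p = 0.349). Sars, the seryl-tRNA synthetase gene, differed by -0.80 (SE 0.33, adjusted p = 0.395), and its libraries overlapped (9.56 and 8.89 against 8.98, 8.20 and 8.09).

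Of the 20 synthetases, 8 are held together with scaffold proteins in the multi-synthetase complex (Dars, Eprs, Iars, Kars, Lars, Mars, Qars and Rars). With IL4, all 8 had differences above 0 as deposited (all rows: 6073 of 13615). Their median was 0.58 as deposited, 0.78 after housekeeping scaling and 0.63 after ribosomal protein scaling. The IL4 libraries lay above both unstimulated ones for 6 of them and below both for 0 (all rows: 11.7% and 14.7%). With LPS plus IFNg against IL4, all 8 were below 0 as deposited (all rows: 6464 of 13615), with a median of -0.75. After housekeeping scaling 4 of 8 were below 0 (median -0.32), and after ribosomal protein scaling 1 of 8 (median 0.74). Only Rars passed the test there, on the lower side, where 6.96% of all rows were called lower as deposited. Eprs, which joins the glutamyl and prolyl activities in one protein, stood at 9.66 and 9.60 without stimulus, at 10.18, 9.77 and 9.96 with IL4 and at 10.17, 9.98 and 9.43 with LPS plus IFNg. Its differences were 0.34 for IL4 against no stimulus (SE 0.25, limma adjusted p = 0.66) and -0.11 for LPS plus IFNg against IL4 (SE 0.22, adjusted p = 0.818).

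The scaffold genes showed a similar order for Eef1e1, the smallest scaffold of the complex. Eef1e1 was 2.03 lower with LPS plus IFNg than with IL4 (SE 0.37, limma adjusted p = 0.0121), and it differed from no stimulus by 0.98 with IL4 (adjusted p = 0.407) and by -1.04 with LPS plus IFNg (adjusted p = 0.218). Aimp1 and Aimp2 did not pass in any comparison. The 12 free synthetases had a median IL4 difference of 0.24 as deposited (8 of 12 above 0). Of 17 mitochondrial synthetases, tested as a second set of the same enzymes, only Nars2 passed. It fell by 3.71 between IL4 and LPS plus IFNg (limma adjusted p = 0.0149), where 6.96% of all rows were called lower. Its mean went from 4.01 to 0.30, and its unstimulated mean was 0.20.

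Tars, the threonyl-tRNA synthetase gene, differed from Aars in direction. Its libraries read 7.26 and 7.25 without stimulus, 7.50, 7.15 and 7.38 with IL4 and 7.05, 5.92 and 6.04 with LPS plus IFNg. All 3 LPS plus IFNg libraries lay below the rest, replicate 1 only narrowly, and the difference from no stimulus of -0.91 (SE 0.38) did not pass (limma adjusted p = 0.245). Iars, the isoleucyl-tRNA synthetase gene, differed by -0.90 (SE 0.72, adjusted p = 0.582), with overlapping libraries. Yars, the tyrosyl-tRNA synthetase gene, was near the floor, with 0.14 and 4.06 without stimulus, 5.30, 4.39 and 1.17 with IL4 and 0, 1.78 and 3.38 with LPS plus IFNg, and its standard errors were 1.57 to 1.76 log2 units. The other members of the group, Cars, Dars, Kars, Lars, Mars, Nars, Qars and Vars, did not pass in any comparison, with LPS plus IFNg differences from no stimulus between -0.73 (Dars) and 0.46 (Cars).

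The promoters of these genes were read from RefSeq sequences of build GRCm38, which cover 250 bases before and 50 bases from the annotated start on for 54 of the 74 members (41 Eif rows and 13 synthetases). Wars is not among these 13, so its promoter was not searched. The C/EBP-ATF response element, the class of site that ATF4 binds with a C/EBP partner, was searched as TGATGNAAN on both strands. It was present in 5 of the 13 synthetases (38.5%), in 1 of the 41 Eif rows (2.44%; Eif2s3x) and in 1215 of 27025 genes (4.5%). The 5 promoters are shown from position -130 to position 19, counted from 0 at the annotated start, 5′ to 3′ on the gene's strand, because they are the synthetase promoters that hold the element. Capitals mark the element, which in 4 of the 5 genes lies on the opposite strand and so reads as the reverse complement. The stretches are chr8:111033712-111033861 (plus strand) for Aars, chr6:55037871-55038020 (plus) for Gars, chr13:49682000-49682149 (plus) for Iars, chr15:11399639-11399788 (minus) for Tars and chr4:129189773-129189922 (plus) for Yars.
Aars: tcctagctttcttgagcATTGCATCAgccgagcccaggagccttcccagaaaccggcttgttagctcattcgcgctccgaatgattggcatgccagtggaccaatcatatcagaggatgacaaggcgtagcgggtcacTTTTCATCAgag
Gars: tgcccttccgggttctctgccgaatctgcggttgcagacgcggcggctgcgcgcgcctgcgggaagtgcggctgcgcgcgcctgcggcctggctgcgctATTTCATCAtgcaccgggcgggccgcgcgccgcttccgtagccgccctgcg
Iars: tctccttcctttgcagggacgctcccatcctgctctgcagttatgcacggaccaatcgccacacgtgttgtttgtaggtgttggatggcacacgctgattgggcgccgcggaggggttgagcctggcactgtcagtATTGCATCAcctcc
Tars: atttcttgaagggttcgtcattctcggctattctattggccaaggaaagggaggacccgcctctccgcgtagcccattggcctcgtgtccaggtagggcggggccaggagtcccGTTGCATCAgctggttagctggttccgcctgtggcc
Yars: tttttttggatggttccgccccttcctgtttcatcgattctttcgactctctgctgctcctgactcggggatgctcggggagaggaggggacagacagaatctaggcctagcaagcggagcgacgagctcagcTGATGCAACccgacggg

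Aars holds the element at 2 places, from -113 to -105 and from 8 to 16. Gars holds it from -31 to -23, Iars from 6 to 14, Tars from -16 to -8 and Yars from 3 to 11. The 5 genes did not share a direction with LPS plus IFNg against no stimulus: Aars rose by 1.48, and the others, none of which passed, differed by 0.81 (Gars), -0.90 (Iars), -0.91 (Tars) and -0.38 (Yars). A match of these letters is a description of the sequence and not a bound site.

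Letters of interferon response sites were searched in the same promoters, among which that of Wars is missing. The gamma-activated site was searched as TTCNNNGAA and was found in 2 of 13 synthetase promoters (15.4%; Aars and Kars), in 3 of 41 Eif promoters (7.32%; Eif3c, Eif3g and Eif4e) and in 9.55% of all promoters. The core of the interferon-stimulated response element was searched on both strands and was found in 1 of 13 (7.69%; Qars), in 3 of 41 (7.32%; Eif2s1, Eif2s3x and Eif3a) and in 3.99% of all. Within the members, no match of one of these patterns overlaps a match of another. In the Aars promoter shown, the gamma-activated letters run from -88 to -80.

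Among the initiation factors, the eIF2 group brings in the initiator tRNA. Eif2s1 and Eif2s2 encode the alpha and beta subunits and did not pass in any comparison. Eif2s1 stood at 6.08 and 6.64 without stimulus, at 8.72, 6.33 and 6.98 with IL4 and at 7.08, 7.04 and 8.30 with LPS plus IFNg. All 3 LPS plus IFNg libraries were above the unstimulated ones, by 1.12 on average (SE 0.73, limma adjusted p = 0.471). Eif2s2 differed by -0.03 with LPS plus IFNg (SE 0.32, adjusted p = 0.996).

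The gamma subunit of eIF2 has 2 gene copies in the mouse, Eif2s3x on the X chromosome and Eif2s3y on the Y chromosome, and they went different ways. Eif2s3x stood at 7.86 and 8.58 without stimulus, at 8.38, 8.42 and 8.91 with IL4 and at 7.04, 6.37 and 7.01 with LPS plus IFNg. Its LPS plus IFNg libraries lay below all others. Eif2s3x fell 2.67-fold with LPS plus IFNg against no stimulus (log2 -1.41, SE 0.34, adjusted p = 0.0485) and was 3.40-fold lower than with IL4 (log2 -1.77, SE 0.30, adjusted p = 0.00947). The first call was lost in all 8 leave-outs (adjusted p 0.0609 to 0.248), and the second held in all 8 (0.0214 to 0.0358).

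Eif2s3y, by contrast, stood at 8.0 and 8.61 without stimulus, at 7.53, 7.85 and 7.96 with IL4 and at 8.45, 8.10 and 8.36 with LPS plus IFNg. Its IL4 libraries were the lowest, and the LPS plus IFNg libraries fell between the unstimulated ones. The differences did not pass: -0.53 with IL4 (SE 0.26, adjusted p = 0.486) and -0.01 with LPS plus IFNg (SE 0.26, adjusted p = 1), and 0.52 between LPS plus IFNg and IL4 (SE 0.23, adjusted p = 0.221).

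In the difference between the copies within a library, a shift that is the same for every row cancels, but quantile normalisation is not such a shift. Eif2s3x minus Eif2s3y was -0.14 and -0.03 without stimulus, 0.85, 0.56 and 0.95 with IL4, and -1.41, -1.73 and -1.34 with LPS plus IFNg. No 2 conditions overlapped. The mean moved by 0.88 with IL4 and by -1.41 with LPS plus IFNg against no stimulus (exact permutation p = 0.2 for each, two-sided, the smallest that 2 against 3 libraries allow) and by -2.29 between the stimuli (exact permutation p = 0.1, the smallest for 3 against 3). This pair was chosen after its values were seen. The copies are close in sequence, so reads shared between them could have been assigned to either; neither the labels nor the table say how such reads were handled.

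**Figure D3:**
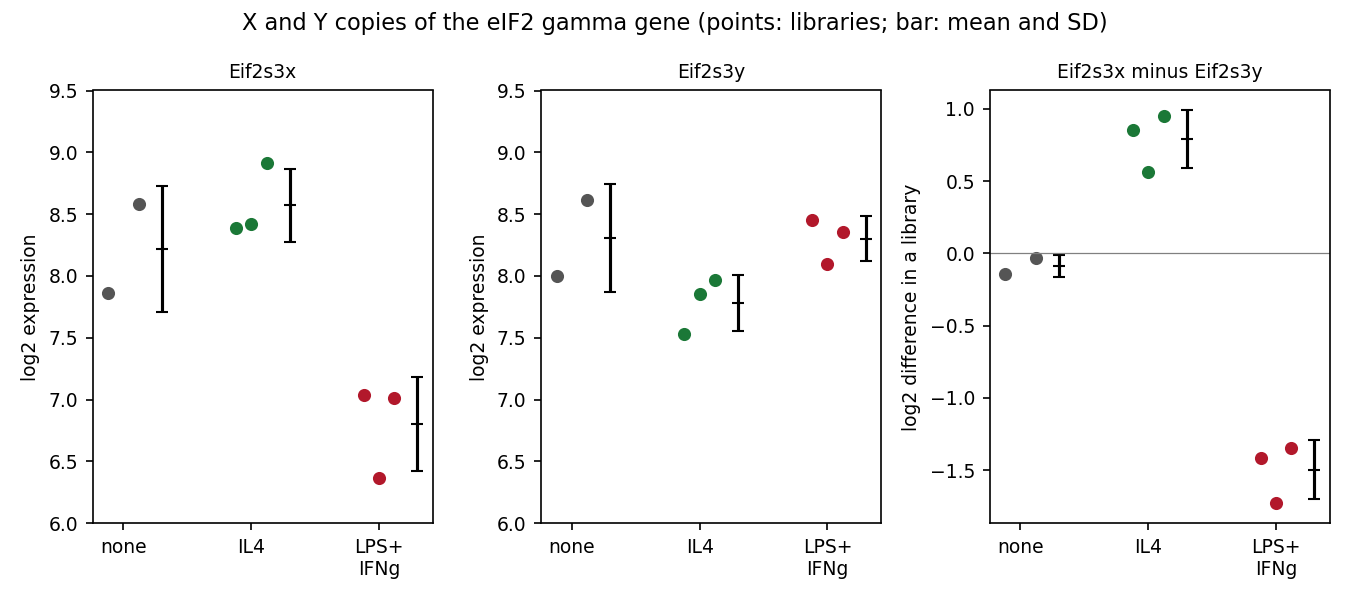
Log2 expression of Eif2s3x and Eif2s3y in each library (left and middle, y axes) and their difference within a library (right, y axis); points are libraries, bars are the mean and SD. Eif2s3x is lowest and Eif2s3y is not lowest in the LPS plus IFNg libraries, so that their difference separates the 3 conditions.

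The annotated starts of the 2 copies also differ by a rule for the letters that mark a terminal oligopyrimidine (TOP) mRNA. Translation of this class depends on mTORC1, and it holds the ribosomal proteins and several translation factors. A TOP-like start, a C at the annotated start followed by at least 4 bases that are C or T, was found in 2 of 41 Eif rows (4.88%; Eif2s3x and Eif3f), in 0 of 13 synthetases and in 3.01% of all genes with a promoter. The stretches below run from position -40 to position 19 on GRCm38, with the run of C and T from the start in capitals. Eif2s3y, whose start does not open with C, is given without capitals for comparison with its paralog. Its annotated start is an A, and a run of C and T opens with a C at the very next base. The difference between the copies by this rule thus rests on the exact place of the annotated start. They lie at chrX:94212632-94212691 (minus strand) for Eif2s3x, chrY:1010555-1010614 (plus) for Eif2s3y and chr7:108934375-108934434 (plus) for Eif3f.
Eif2s3x: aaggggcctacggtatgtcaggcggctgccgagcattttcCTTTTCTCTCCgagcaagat
Eif2s3y: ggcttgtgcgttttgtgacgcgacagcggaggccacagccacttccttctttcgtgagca
Eif3f: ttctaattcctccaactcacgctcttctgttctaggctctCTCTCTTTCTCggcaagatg

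Annotated starts can be off by some bases, and a start without these letters does not show that the mRNA lacks a TOP motif. In Eif2s3x the run of C and T overlaps the letters of the interferon-stimulated response element core, described above, which lie on the opposite strand from -4 to 5. The 2 genes with such a start differed between LPS plus IFNg and no stimulus by -1.41 (Eif2s3x, called as given above) and by -0.76 (Eif3f, not called).

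The exchange factor eIF2B, which reloads eIF2 with GTP, was at low levels in several libraries. Eif2b1 was at 0 in LPS plus IFNg replicate 3, Eif2b2 at 0 in IL4 replicate 2 and at 0.88 in LPS plus IFNg replicate 2, and Eif2b3 at 0.91 in LPS plus IFNg replicate 3, and the standard errors of these 3 genes were above 1. Eif2b5, the catalytic subunit, stood at 6.67 and 5.97 without stimulus, at 6.74, 7.41 and 5.98 with IL4 and at 6.48, 6.03 and 5.99 with LPS plus IFNg, so all 3 conditions overlapped. The same was true of Eif2b4 against no stimulus, and no eIF2B gene passed in limma.

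Eif2a and Eif2d encode factors that can deliver initiator tRNA without eIF2. Eif2a stood at 9.10 and 9.22 without stimulus, at 8.99, 8.57 and 9.30 with IL4 and at 8.06, 8.30 and 7.73 with LPS plus IFNg, where all 3 libraries were below the other 5. It fell 2.18-fold with LPS plus IFNg (log2 -1.13, SE 0.27, limma adjusted p = 0.049) and was 1.90-fold lower than with IL4 (log2 -0.92, SE 0.24, adjusted p = 0.0485). Both calls sit at the threshold and passed in 2 of 8 and 1 of 8 leave-outs. Eif2d was listed at 0 in 2 of 3 IL4 libraries and at 3.75 to 5.78 in the LPS plus IFNg ones, and its IL4 difference of -2.95 did not pass (adjusted p = 0.477).

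The eIF3 complex, the largest initiation factor, has the most rows of any role here. With LPS plus IFNg against no stimulus, 10 of its 13 rows were below 0 as deposited, beside 8 of 10 eIF4 rows and 7 of 9 eIF2 and eIF2B rows. Of its 13 subunit rows, Eif3k fell and none rose against no stimulus (all rows: 4.25% and 3.72%). At an unadjusted p of 0.05 in limma, 7 were lower and 0 higher (all rows: 10.9% and 8.47%). The 3 LPS plus IFNg libraries lay below both unstimulated ones for 7 and above them for 1 (Eif3b), where 20.7% and 16.1% of all rows did so. Its median difference was -0.67 as deposited, -0.04 after housekeeping scaling and 0.87 after ribosomal protein scaling. By library, the median level of the 13 rows was 7.41, 7.63 and 8.43 with LPS plus IFNg, against 8.18 and 8.38 without stimulus. The median level was thus not lower in LPS plus IFNg replicate 3. With IL4 against no stimulus the median difference was -0.03 as deposited, 0.17 after housekeeping scaling and 0.02 after ribosomal protein scaling, and no subunit passed.

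Eif3k, a small subunit at the edge of the complex, stood at 8.18 and 8.38 without stimulus, at 7.96, 8.30 and 8.50 with IL4 and at 6.70, 6.94 and 7.38 with LPS plus IFNg. The LPS plus IFNg libraries were the 3 lowest. Eif3k fell 2.42-fold against no stimulus (log2 -1.27, SE 0.28, limma adjusted p = 0.0365) and was 2.37-fold lower than with IL4 (log2 -1.24, SE 0.25, adjusted p = 0.018). The first call passed in 3 of 8 leave-outs and the second in 4 of 8.

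Eif3i and Eif3l showed larger mean differences with a wider spread. Eif3i stood at 8.62 in both unstimulated libraries, at 8.21, 8.53 and 8.38 with IL4 and at 7.41, 5.86 and 7.53 with LPS plus IFNg. Eif3l stood at 7.07 and 7.97, at 7.85, 7.73 and 7.40, and at 6.98, 3.86 and 5.71. LPS plus IFNg replicate 2 gave the lowest value of both genes, and neither difference passed (Eif3i -1.69, adjusted p = 0.0885; Eif3l -2.0, adjusted p = 0.237). Eif3l binds Eif3k in the complex.

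Eif3e, Eif3f and Eif3h are subunits whose mRNAs are commonly listed as TOP mRNAs. Eif3e read 10.35 and 10.23 without stimulus and 9.70, 8.81 and 9.29 with LPS plus IFNg. Eif3f read 7.96 and 7.67, then 6.68, 7.25 and 7.23. Eif3h read 8.84 and 9.08, then 8.09, 6.95 and 8.43. In all 3 genes the 2 conditions did not overlap, and their differences of -1.02, -0.76 and -1.13 did not pass (limma adjusted p = 0.135, 0.17 and 0.215); after ribosomal protein scaling all 3 were above 0. Eif3a, the large core subunit, differed by -0.47 (SE 0.32, adjusted p = 0.489) with overlapping libraries. Eif3b, another subunit, read 7.67 and 7.56 without stimulus and 7.77, 8.39 and 8.69 with LPS plus IFNg, a difference of 0.67 without overlap that did not pass (SE 0.29, adjusted p = 0.269). Of the other subunits, Eif3c, Eif3d, Eif3g and Eif3j overlapped, and Eif3m was at 7.36, 7.63 and 7.16 with LPS plus IFNg against 7.91 and 8.19 without stimulus (-0.67, adjusted p = 0.176).

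**Figure D4:**
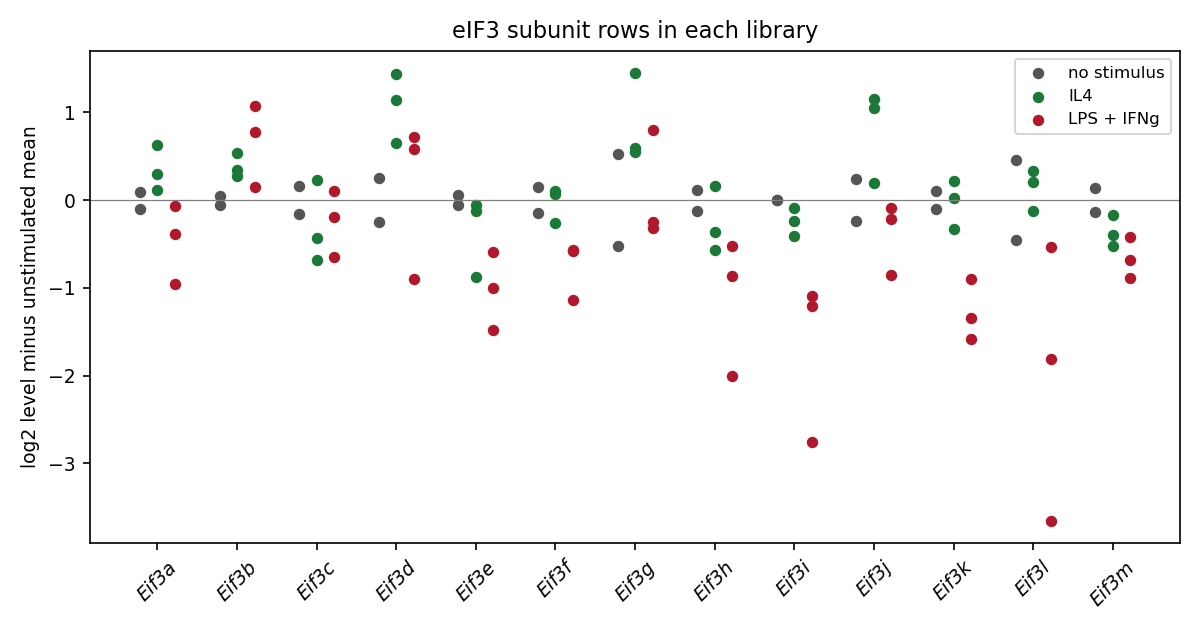
Log2 level of the 13 eIF3 subunit rows in each library, as deposited, minus the mean of the 2 unstimulated libraries (y axis); grey is no stimulus, green IL4 and red LPS plus IFNg. The red points of 7 subunits lie below both grey points and those of Eif3b lie above; after ribosomal protein scaling 2 of the 13 mean differences would be below 0 instead of 10.

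The eIF4 group binds the cap, scaffolds the complex and unwinds the leader. Eif4g3, a homolog of the scaffold eIF4G, was the 1 Eif row that was higher with LPS plus IFNg than with IL4. It stood at 10.75 and 10.32 without stimulus, at 10.02, 9.72 and 9.80 with IL4 and at 10.83, 10.90 and 10.83 with LPS plus IFNg. The 3 conditions did not overlap, and IL4 was lowest. Between the stimuli Eif4g3 differed 2.0-fold (log2 1.0, SE 0.17, limma adjusted p = 0.00935), and this call held in all 8 leave-outs and all 7 other settings. Against no stimulus it was 0.69 lower with IL4 (SE 0.19, adjusted p = 0.179) and 0.31 higher with LPS plus IFNg (SE 0.19, adjusted p = 0.439), neither of which passed.

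Its paralog Eif4g1, the main scaffold, overlapped between all conditions (9.14 and 8.67, then 9.80, 9.06 and 9.43, then 8.91, 9.55 and 9.77). Within a library, Eif4g1 minus Eif4g3 was -1.61 and -1.65 without stimulus, -0.23, -0.66 and -0.38 with IL4, and -1.92, -1.35 and -1.05 with LPS plus IFNg. The IL4 libraries were above all others (difference between the stimuli -1.02, exact permutation p = 0.1, the smallest that 3 against 3 allow; a pair chosen after its values were seen).

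The helicase gene Eif4a1 stood at 10.87 and 10.61 without stimulus, at 11.37, 12.36 and 10.99 with IL4 and at 10.27, 10.44 and 9.81 with LPS plus IFNg. The IL4 libraries were the highest and the LPS plus IFNg libraries the lowest, with no overlap. Eif4a1 was 2.63-fold lower with LPS plus IFNg than with IL4 (log2 -1.40, SE 0.36, limma adjusted p = 0.0458), a call that passed in 1 of 8 leave-outs. Eif4a2, its paralog, overlapped in all conditions and differed by -0.13 between the stimuli (SE 0.32, adjusted p = 0.864). Eif4a3, the exon junction helicase of the same family, was 2.72-fold lower with LPS plus IFNg than with IL4 (log2 -1.44, SE 0.37, adjusted p = 0.0437; 7.79, 7.43 and 7.42 against 6.49, 6.46 and 5.35), a call that also passed in 1 of 8 leave-outs.

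The cap-binding gene Eif4e stood at 8.27 and 8.36 without stimulus, at 8.73, 9.32 and 9.07 with IL4 and at 7.79, 8.41 and 8.56 with LPS plus IFNg. Its IL4 libraries were above all others, by 0.72 against no stimulus (SE 0.29, limma adjusted p = 0.375). Eif4e3, a cap-binding relative, overlapped in all conditions. Eif4ebp1, which blocks eIF4E until mTORC1 phosphorylates it, read 6.40 and 6.41 without stimulus and 7.35, 6.60 and 6.82 with LPS plus IFNg, a difference of 0.52 that did not pass (SE 0.34, adjusted p = 0.479). Eif4ebp2 differed by -0.53 (SE 0.39, adjusted p = 0.545), with overlapping libraries. Eif4b, which assists the helicase, had a larger difference of -1.59 (SE 0.54, adjusted p = 0.144), and its LPS plus IFNg libraries (9.40, 7.95 and 9.13) lay below the unstimulated ones (10.46 and 10.37).

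Of the 7 factors of start-site selection, scanning and subunit joining, 1 (Eif1ax) passed, in the comparison of the stimuli, where 6.96% of all rows were called lower. Eif1, which keeps scanning accurate, lay within 9.84 to 10.71 in all 8 libraries, and its conditions overlapped. Eif5, which triggers GTP hydrolysis on eIF2, read 10.49 and 10.88 without stimulus, 10.74, 10.19 and 10.93 with IL4 and 11.16, 11.18 and 11.13 with LPS plus IFNg. Its 3 LPS plus IFNg libraries were the highest and nearly equal, at 0.47 above no stimulus (SE 0.25, limma adjusted p = 0.368). Eif1ax, an X-linked gene for eIF1A, read 7.21 and 8.08, then 7.88, 7.99 and 8.51, then 6.98, 6.51 and 7.10. It was 2.40-fold lower with LPS plus IFNg than with IL4 (log2 -1.27, SE 0.32, adjusted p = 0.0418), and that call passed in 2 of 8 leave-outs. Eif1a, the second eIF1A gene, differed by -0.69 in the same comparison (adjusted p = 0.223). Eif5b, which joins the ribosomal subunits, read 13.56 and 13.72 without stimulus and 13.34, 13.27 and 12.98 with LPS plus IFNg, a difference of -0.45 that did not pass (adjusted p = 0.418). With IL4 against no stimulus, Eif1a and Eif1ad were among the 4 Eif rows higher at an unadjusted p of 0.05, both without overlap (1.05, adjusted p = 0.272, and 1.08, adjusted p = 0.356). Neither they nor Eif1b passed in any comparison.

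Of the 53 tested Eif rows, Eif5a had the smallest adjusted p between the stimuli. Its protein carries the amino acid hypusine, made from the polyamine spermidine, and helps ribosomes through hard stretches. Eif5a stood at 8.98 and 9.27 without stimulus, at 10.49, 10.15 and 10.01 with IL4 and at 8.43, 8.20 and 8.33 with LPS plus IFNg. The 3 conditions did not overlap: IL4 was highest and LPS plus IFNg lowest. Between the stimuli Eif5a was 3.73-fold lower with LPS plus IFNg (log2 -1.90, SE 0.19, limma adjusted p = 0.00103), and the call held in all 8 leave-outs (0.00372 to 0.00748). After ribosomal protein scaling the difference was -0.41 and no longer passed (adjusted p = 0.109). Against no stimulus, the differences of 1.10 with IL4 (SE 0.21, adjusted p = 0.0608) and -0.80 with LPS plus IFNg (SE 0.21, adjusted p = 0.0634) fell just short.

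Eif5a2, its tissue-restricted paralog, was at 0 in IL4 replicate 1 and in LPS plus IFNg replicates 2 and 3, and its difference of -3.34 against no stimulus carried a standard error of 1.89. Eif6, which keeps free large subunits apart from small ones, differed by 0.32 with IL4 (adjusted p = 0.761) and by 0.04 with LPS plus IFNg (adjusted p = 0.994). The 4 Argonaute rows did not pass in any comparison. Eif2c4 (Ago4) read 7.79 and 7.77 without stimulus, 5.61, 7.15 and 3.63 with IL4 and 5.74, 6.41 and 4.55 with LPS plus IFNg, so all 6 stimulated libraries were lower (-2.32, SE 1.0, adjusted p = 0.421, and -2.21, SE 1.0, adjusted p = 0.29). Eif2c4 was singled out here after its values were seen.

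**Figure D5:**
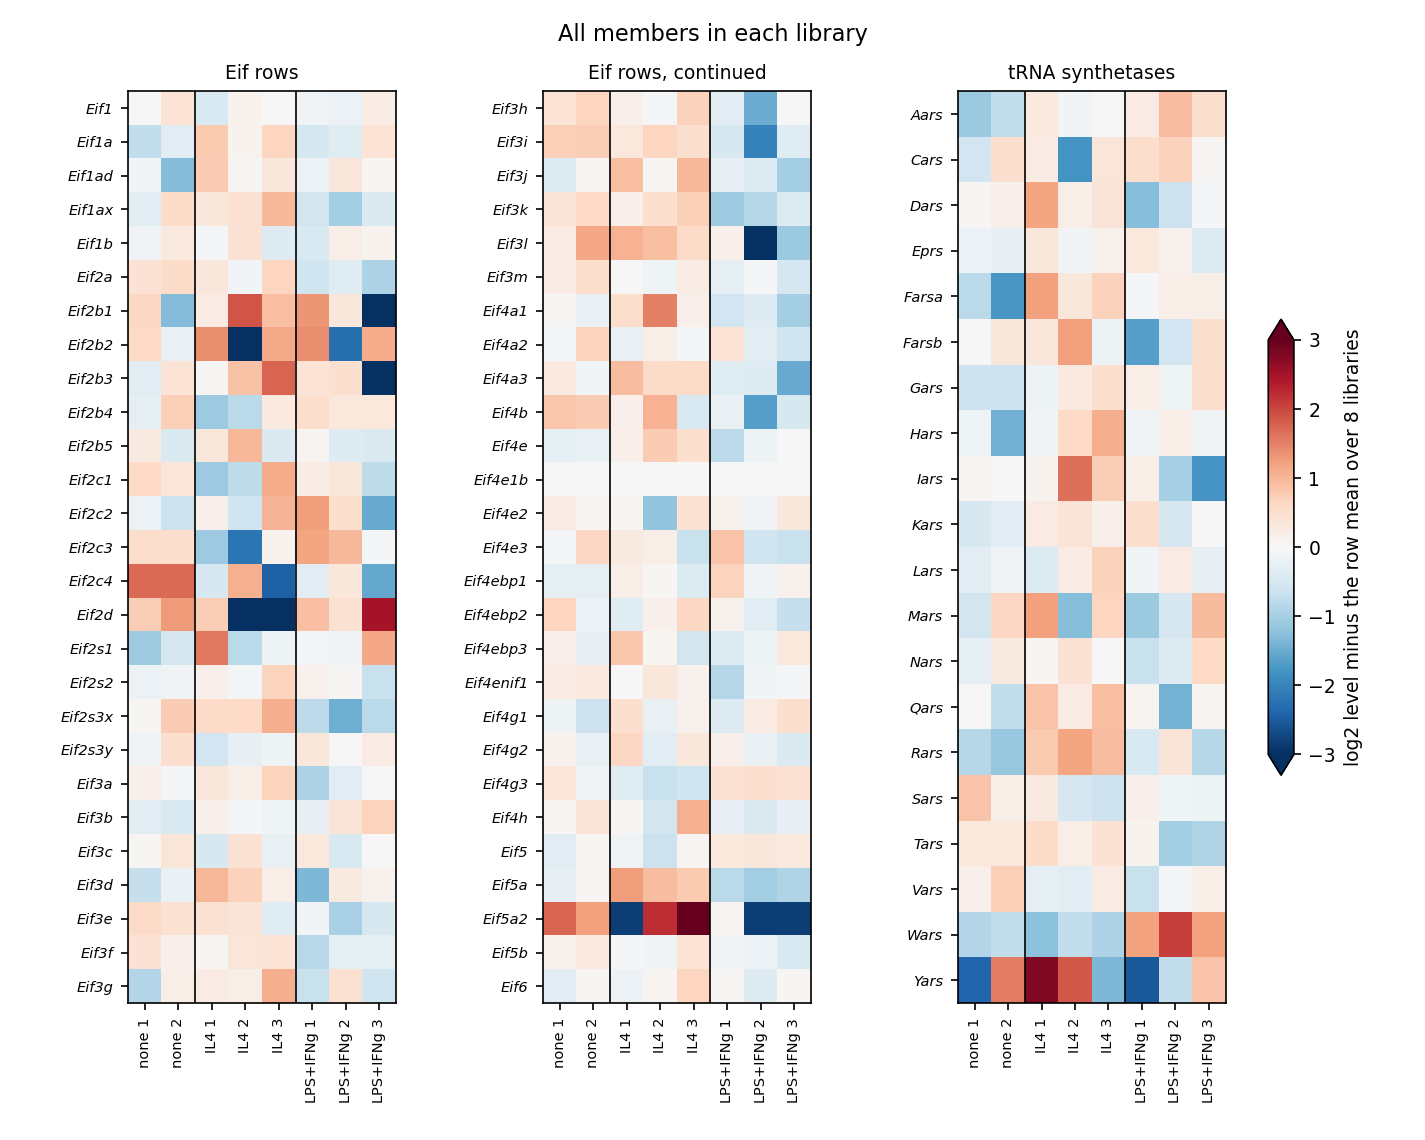
Log2 level of all 74 members in each of the 8 libraries, minus the mean of the row over the libraries; red is above and blue below the row mean, the colour scale ends at -3 and 3, and black lines separate no stimulus, IL4 and LPS plus IFNg. Eif5a and Rars are red with IL4, Wars is red with LPS plus IFNg, and Eif2b1, Eif2b2, Eif2b3, Eif2d, Eif5a2 and Yars show deep colours where a library was at or near 0.

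Genes around initiation were read from the same fit. Of 6 elongation genes, 2 fell with LPS plus IFNg against no stimulus and 3 were lower than with IL4 (all rows: 4.25% and 6.96%). Their medians were -1.50 and -1.71 as deposited, -0.88 and -1.28 after housekeeping scaling, and 0.03 and -0.22 after ribosomal protein scaling. The 6 include Eef2k, which encodes a kinase of the elongation factor eEF2 and not a factor. Eef2k was at 0 in 1 LPS plus IFNg library and differed by -2.31 and -3.23 without passing. Eef1a1, which brings loaded tRNA to the ribosome, fell by 2.91 log2 units against no stimulus (SE 0.17, limma adjusted p = 0.000391), more than any called initiation factor row. Eef1d, part of its exchange factor, fell by 1.74 (adjusted p = 0.0323), and Eef1b2 differed by -1.26 (adjusted p = 0.075). Among 7 genes of termination, recycling and poly(A) binding, only Pabpc4, a poly(A) binding protein, passed against no stimulus (all rows: 4.25% lower). It fell by 0.99 (limma adjusted p = 0.0425).

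Of the 4 eIF2 alpha kinase genes, Eif2ak2, the interferon-induced kinase PKR, rose by 1.31 with LPS plus IFNg against no stimulus (SE 0.30, limma adjusted p = 0.0398) and was 2.25 higher than with IL4 (adjusted p = 0.00216). The other 3 did not pass, where 3.72% and 5.91% of all rows were called higher. Of 15 genes of the integrated stress response, the programme downstream of these kinases, 2 rose against no stimulus (all rows: 3.72%): Slc7a11, the cystine transporter, by 5.12 (adjusted p = 0.00215) and Ppp1r15b, a phosphatase subunit that reverses eIF2 phosphorylation, by 1.38 (adjusted p = 0.0472). Atf4 itself was 1.02 higher without passing (SE 0.34, adjusted p = 0.132). Against IL4, Slc7a11, Ppp1r15b and Trib3 were higher (all rows: 5.91%) and Xpot, the tRNA exporter, was lower (all rows: 6.96%).

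Of the 12 synthetases commonly listed as ATF4 targets, Wars and Aars rose with LPS plus IFNg against no stimulus and none fell (all rows: 3.72% and 4.25%). The median of the 12 was 0.02 as deposited, 0.65 after housekeeping scaling and 1.56 after ribosomal protein scaling. None of the 10 genes of the mTORC1 and MNK branch passed limma's test in any comparison. At an unadjusted p of 0.05 in limma, 0 were higher and 1 was lower with IL4 against no stimulus (all rows: 5.53% and 6.57%). With LPS plus IFNg the counts were 0 and 0 against no stimulus (all rows: 8.47% and 10.9%). Against IL4 they were 1 and 2 (all rows: 11.6% and 13.9%).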

How the data were processed

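The values are log2 expression, quantile normalised by the authors per the name of the deposited table, from 3′ end RNA libraries (strand specific, pooled by Actb level, per the labels' protocols). The submitters' processing notes name TopHat and mm9; no source names the counting tool, no molecular identifiers are described, and depth is unknown because the table holds no counts. Quantile normalisation gives all libraries nearly the same spread of values, so it can move a group of genes when many abundant genes change.

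Of 20259 rows, 1 had no symbol and 6643 held 1 value in every library; the other 13615 were fitted in limma 3.58.1 (R 4.3.3) with an intensity trend, all 8 libraries, 5 residual and 2.31 prior degrees of freedom, and Benjamini-Hochberg adjustment over those rows at 0.05. The fit was tested on simulated data. The unit was log2, so no count test was run. Libraries do not overlap for a row where every value of a group lies beyond every value of the other. Pairs within a library were compared by two-sided exact permutation tests (scipy 1.17.1). Alternatives were no trend, only the groups compared, leaving out rows of low mean (a share of 0.25), damping low values, scaling to housekeeping or ribosomal protein genes, a replicate block, a threshold of 0.01 and leaving out each library. Genes were named by a rule: Wars, the called members, a set list of members of each role whether called or not, and from each list of other genes up to 3 that were called and 1 that was not. Members named beyond it (Rars and Farsa for IL4, Hars, Farsb, Eif1a, Eif2b1 to Eif2b3, Eif2c4, Eif2d, Eif2s2, Eif3b, Eif3i, Eif3l, Eif3m, Eif4b, Eif5a2 and Eif5b among them) were chosen after their values were seen. The members, gene lists and comparisons were chosen with earlier results of these data known.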

Additional observations from a re-analysis of the deposited data

How the results depend on the processing

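Each of 219 results (73 tested members in 3 comparisons) was refitted under 16 other settings. A change of sign was counted as a reversal where the result passed the threshold in either fit; other sign changes were counted apart. Damping low values left all 219 on the same side of the threshold, as did 205 under housekeeping scaling (9 lost, 5 gained, 55 uncalled sign changes) and 140 under ribosomal protein scaling (2 lost, 33 gained, 44 reversed). The cause was not tested.

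For IL4 against no stimulus, housekeeping scaling moved the median of the Eif rows to 0.165 and that of the synthetases to 0.64, and gave 1 synthetase higher, as did leaving out rows of low mean. For LPS plus IFNg against no stimulus, Eif rows higher numbered 1 (housekeeping) and 25 (ribosomal protein scaling). Eif rows lower numbered 0 without the trend, with only the 2 groups, under both scalings and at 0.01, 1 with the replicate block and 5 without rows of low mean. The Eif median was -0.24 with low values damped, 0.24 with housekeeping and 1.15 with ribosomal protein scaling. Synthetases higher numbered 1 with only the 2 groups, without rows of low mean and with the block, 4 and 12 under the scalings and 0 at 0.01, and their median was 0.695 and 1.61 under the scalings. Wars, at 2.30, missed the threshold of 0.01 (adjusted p = 0.0123).

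For LPS plus IFNg against IL4, Eif rows higher numbered 2 (housekeeping) and 25 (ribosomal protein), and Eif rows lower 3 without the trend, 4 with only the 2 groups, 4 with the block, 2 with housekeeping scaling, 2 at 0.01 and 0 with ribosomal protein scaling. The Eif median was -0.0009 and 1.06 under the scalings. Synthetases higher numbered 10 under ribosomal protein scaling. Synthetases lower numbered 0 without the trend, with only the 2 groups, with the block, under both scalings and at 0.01, and 2 without rows of low mean, and their median was 0.060 and 1.12 under the scalings.

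Leaving out single libraries gave, for IL4 against no stimulus, 0 to 1 synthetase higher and a median of 0.32 to 0.62. For LPS plus IFNg against no stimulus it gave 0 to 2 Eif rows lower (median -0.42 to -0.22), 0 to 2 synthetases higher, 0 to 1 lower (median 0.0006 to 0.25) and Wars at 2.01 to 2.45. Against IL4 it gave 1 to 2 Eif rows higher, 3 to 4 lower, and 0 to 1 synthetase lower (median -0.59 to -0.28).

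Under ribosomal protein scaling, these results of LPS plus IFNg against no stimulus reversed: Eif1 1.31, Eif1b 1.40, Eif2a 0.41, Eif2s2 1.51, Eif2s3x 0.12, Eif2s3y 1.53, Eif3a 1.07, Eif3c 1.29, Eif3j 1.15, Eif3k 0.27, Eif3m 0.87, Eif4e 1.47, Eif4e2 1.50, Eif4enif1 0.93, Eif4g2 1.43, Eif5a 0.74, Eif5b 1.09, Nars 1.40 and Sars 0.98. Against IL4 they were Eif1a 0.80, Eif1ad 1.19, Eif1ax 0.22, Eif1b 1.45, Eif2a 0.57, Eif2s2 1.06, Eif3e 0.82, Eif3k 0.25, Eif3m 1.19, Eif4a1 0.093, Eif4a2 1.36, Eif4a3 0.046, Eif4e3 1.42, Eif4enif1 0.99, Eif4g1 1.47, Eif4g2 1.12, Eif5b 1.15, Eif6 1.21, Eprs 1.38, Gars 1.48, Kars 1.23, Lars 1.29, Nars 1.18, Rars 0.21 and Vars 1.43.

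Libraries with the same replicate number showed weak correlations of their deviations from group means (-0.08 to 0.07 over 7283 genes). Those with different numbers ranged alike, from -0.07 to 0.08. Deviations from means of 2 or 3 libraries partly mirror each other, so this check cannot tell whether the numbers pair libraries. Depth is unknown. Tested members with a value of 0 in a library had standard errors above 1 log2 unit, while Nars2, at 0 in 3 libraries, had 0.71 to 0.80.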
